A study of Mus musculus with 3 samples.

Results

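Gene expression of the islet graft-bearing spleen on day 2 after transplantation was compared with that on day 0, on 1 array at each time. The comparison covered every gene probe of the array that was well above background on at least 1 of these arrays, which was 31571 of 55681 probes. Of these, 28703 were well above background on both arrays, 1589 on the day 0 array alone and 1279 on the day 2 array alone. A current gene symbol was found for 21289 of the probes, and they stand for 15552 of the 22328 named genes on the array. The recipients were male C57BL/6J mice made diabetic with streptozotocin, which destroys beta cells, and the islets came from the same strain. Both spleens had received 25 islets, and the protocol adds 100 islets beneath the kidney capsule for every sample, although the sample characteristics name that second graft for the day 139 sample alone. Signals of another array are given below for some genes, from a spleen taken on day 139 after a nephrectomy on day 100 that removed the kidney graft. The day 0 spleen was taken directly after the islets had been injected through its surface, so it is no untreated spleen, and both animals carried the same streptozotocin injury, puncture and graft. The number of mice behind an array is not given in the sources used here. With 1 array at each time there is no replicate check and no p-value, and the differences below are those of 2 arrays.

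The spleen filters blood in its red pulp, where macrophages recycle the iron of old red cells, and holds its B and T cells in the white pulp. It also keeps reserves of monocytes and of maturing neutrophils. After an injury, tissues make interleukin 6, interleukin 1 and chemokines that draw neutrophils early, and macrophages and matrix-producing cells act later. In whole spleen RNA, fewer cells of a type and less RNA per cell cannot be told apart.

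A value below is the deposited signal of a gene's brightest measured probe, a quantile-normalized intensity on a linear scale. A log2 ratio is that of day 2 over day 0, so that 1 is a 2-fold higher and -1 a 2-fold lower signal on day 2. A probe that was not well above background on an array was raised to the lowest signal of probes that were, which was 12.9 on day 0 and 14.0 on day 2, and the resulting fold is a bound. Signals of the genes correlated at r = 0.976 on the log2 scale, across genes that are not independent replicates, and the median log2 ratio was 0.03. At least 2-fold higher on day 2 were 514 genes (3.31%), and at least 2-fold lower were 433 (2.78%). By probes, these shares were 2.79% and 3.24%. A difference of 8-fold or more was seen for 20 genes with the higher signal on day 2 and for 18 with the lower. The error of a spot, as the scanner software estimates it, came to about 0.20 on the log2 ratio of bright genes and to more for dim ones, and it covers neither labeling nor differences between mice. The plot of all genes shows these groups with the leading genes named.

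**Figure D1:**
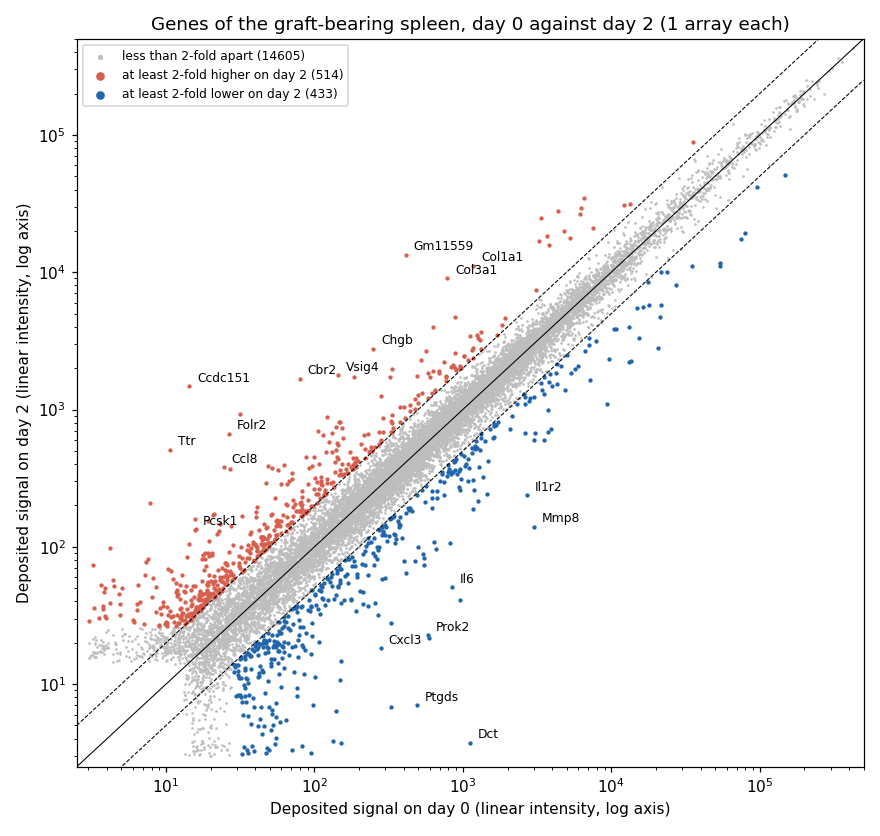
Deposited signal of each of the 15552 genes on day 0 (x axis) and day 2 (y axis), both as linear intensity on log axes. The solid line marks equal signals and the dashed lines a 2-fold difference. Dots show the deposited signals before dim probes were raised, so some grey dots lie outside the dashed lines. Matrix, hormone-processing and macrophage genes stand among the 514 genes above the lines, and Mmp8, Il6, Il1r2 and Dct among the 433 below.

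The interleukin 6 pathway had its higher signals on the day 0 array. Interleukin 6 is a cytokine that acts through the receptor chain Il6st and the factor STAT3 and drives the acute phase response. The signal of Il6 (mm9 chromosome 5, 30346367 to 30346426) was 841 on day 0 and 50.9 on day 2, a log2 ratio of -4.05 with a spot error of 0.22. Socs3, the feedback inhibitor that STAT3 induces, had signals of 7204 and 1646, a log2 ratio of -2.13. Oncostatin M (Osm), a cytokine of the same family, went from 151 to 38.8, and its receptor Osmr from 3006 to 1230. Of the 15 measured genes of the interleukin 6 family and STAT3 feedback, these 4 were at least 2-fold lower on day 2 and 0 were higher. The other members lay closer to 0 but on the same side, so that 15 of 15 log2 ratios were negative, with a median of -0.68. This holds for the brightest probe of each gene, as the log2 ratios of the 3 probes of Lifr ran from -0.46 to 0.33. The ligand Lif was the nearest to no difference, with signals of 128 and 120.

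Il6 and the chemokine genes Cxcl1, Cxcl2 and Cxcl3 were among the genes with lower signals on day 2, and their promoters share a feature that the arrays do not read. The 250 bases before the start of each gene, as RefSeq gives them on GRCm38.p6, hold a match to the binding motif of NF-kB, the factor that toll-like and interleukin 1 receptors activate. The sequences are shown for that motif, which is in capitals. They lie at chr5:30012864-30013113 for Il6, chr5:90890995-90891244 for Cxcl1, chr5:90903649-90903898 for Cxcl2 and chr5:90785851-90786100 for Cxcl3, each on the plus strand and written 5′ to 3′.
Il6: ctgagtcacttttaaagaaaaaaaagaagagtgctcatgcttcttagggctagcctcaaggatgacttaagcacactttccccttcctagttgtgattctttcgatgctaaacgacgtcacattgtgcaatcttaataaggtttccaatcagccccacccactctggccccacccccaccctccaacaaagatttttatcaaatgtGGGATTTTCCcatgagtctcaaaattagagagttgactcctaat
Cxcl1: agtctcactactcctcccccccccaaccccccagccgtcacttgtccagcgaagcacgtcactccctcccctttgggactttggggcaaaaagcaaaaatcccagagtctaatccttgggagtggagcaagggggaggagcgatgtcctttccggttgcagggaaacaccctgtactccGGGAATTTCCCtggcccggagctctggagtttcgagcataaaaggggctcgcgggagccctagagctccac
Cxcl2: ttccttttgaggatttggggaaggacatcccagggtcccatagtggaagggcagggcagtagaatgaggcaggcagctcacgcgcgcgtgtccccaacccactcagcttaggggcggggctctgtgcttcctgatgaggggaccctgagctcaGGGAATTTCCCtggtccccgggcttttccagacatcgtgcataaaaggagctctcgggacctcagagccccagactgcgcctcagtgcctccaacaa
Cxcl3: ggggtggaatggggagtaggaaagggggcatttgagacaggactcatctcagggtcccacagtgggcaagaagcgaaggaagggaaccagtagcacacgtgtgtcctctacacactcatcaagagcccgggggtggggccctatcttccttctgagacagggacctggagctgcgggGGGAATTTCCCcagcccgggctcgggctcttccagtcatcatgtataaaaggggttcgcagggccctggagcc
In the 3 Cxcl genes, 2 matches overlap in a run of 11 bases that is the same in each. The match begins 44 bases before the start in Il6, 71 in Cxcl1, 97 in Cxcl2 and 73 in Cxcl3. Searched on both strands, the motif is in 7.25% of all 32851 promoter windows, where a gene with several starts can have several windows. In the lists, a gene was counted if any of its windows held a match, so these counts and the share of windows are not in the same unit. Counted so, the motif is in 4 of 11 genes of the inflammatory chemokines and in 4 of 17 of the interleukin 1 list below. Those 4 are Il1r1, Nlrp3, Tnfaip3 and Nfkbia, with log2 ratios of -0.13, -0.56, -0.30 and -0.11, so none of them was 2-fold apart, and the promoters of Il1b, Il1r2 and Tnf held no match in this window. Cxcl10 holds a match too, and its signal was 1274 on day 0 and 1752 on day 2, while its second probe gave a log2 ratio of -0.01. The STAT motif TTCNNNGAA is in 1 of 13 genes of the interleukin 6 list, Socs3, and in 7.02% of all windows. A match is a description of these windows and does not show binding. The 4 promoters were chosen after the signals and the matches were seen.

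The interleukin 1 system showed the same direction in part. Il1b, the cytokine itself, had signals of 3920 and 721, a log2 ratio of -2.44. The decoy receptor Il1r2, which neutrophils carry, had 2700 and 238, a log2 ratio of -3.51, the lowest of the list. Il1rn, the receptor antagonist, had 77.6 and 20.9, and Tnf had 169 and 82.0. Prostaglandin synthase Ptgs2 was well above background on day 0 alone, with a signal of 76.3, so it was at least 5.43-fold lower on day 2. Of 18 measured genes, 6 were at least 2-fold lower and 0 higher. The signalling receptor Il1r1 had 576 and 524, and the interleukin 33 receptor Il1rl1 had 1099 and 1456. The direction of Il1rl1 depended on the probe, as the log2 ratios of its 3 probes ran from -0.17 to 0.47.

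Among 19 measured inflammatory chemokines, 6 were at least 2-fold lower on day 2 and 2 were higher. Cxcl3, Cxcl2 and Cxcl1, which act on the neutrophil receptor Cxcr2, had the lowest ratios. Cxcl3 had signals of 279 and 18.2, a log2 ratio of -3.94, and Cxcl2 had 257 and 38.9. Cxcl1 had 158 and 40.7, while Cxcl5 and Ppbp, other ligands of this receptor, had 785 and 461 and 7137 and 6635 and did not reach 2-fold. Ccl3 and Ccl11, which do not act on it, were lower, with log2 ratios of -1.70 and, as a bound, -1.58. The 3 genes Cxcl1, Cxcl2 and Cxcl3 are close paralogs. Of the monocyte attractants, Ccl2 had 1955 on day 0 and 1005 on day 2 and Ccl7 had 867 and 412, a smaller difference than for the Cxcl genes. Ccl8, a further monocyte attractant, went the other way, from 24.5 to 380, a log2 ratio of 3.95, and stood at 1600 on day 139. Cxcl14 was also higher on day 2, with 17.8 and 87.6. Ccl5, which T cells make, had 13964 and 14433.

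**Figure D2:**
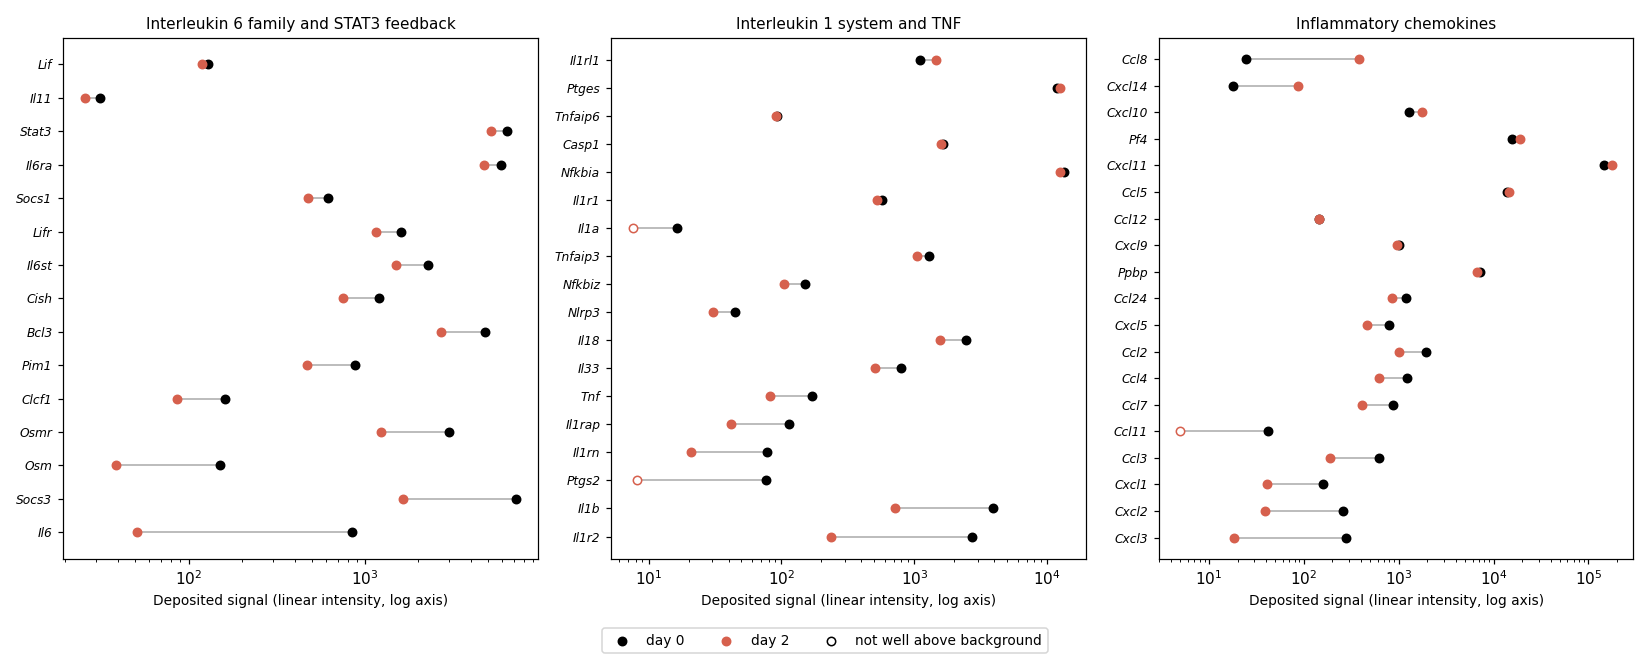
Deposited signal on day 0 (black) and day 2 (red) for each measured member of 3 gene lists, as linear intensity on log axes; open circles are signals not well above background. In the interleukin 6 list every red point lies to the left of its black point, and Ccl8 and Cxcl14 stand out to the right among the chemokines.

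The acute phase genes divided. Haptoglobin (Hp), which binds free hemoglobin, had signals of 15399 and 3339, a log2 ratio of -2.21. Lcn2, which sequesters bacterial iron carriers, had 9597 and 2346. The lipopolysaccharide co-receptor Cd14, ceruloplasmin (Cp) and Serpina3n were also at least 2-fold lower on day 2, with log2 ratios of -1.44, -1.36 and -1.35. Steap4 was at least 5.43-fold lower. These 6 genes are of 13 measured, and 0 were at least 2-fold higher. The serum amyloid genes did not share this direction. Saa3 had 7834 and 13382, and Saa1 had 2367 and 3483, and both were far below these levels on day 139, with 403 and 272.

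Genes that respond to stress and glucocorticoid hormones also had lower signals on day 2 in part. The metallothioneins Mt1 and Mt2, which bind zinc and are induced by glucocorticoids, metals and interleukin 6, had signals of 79677 and 74246 on day 0 and of 19340 and 17505 on day 2. Fkbp5 and Zbtb16, classic glucocorticoid targets, had log2 ratios of -1.82 and -2.61. With Lcn2 these made 5 of 15 measured members at least 2-fold lower and 0 higher. Other targets of the same hormone hardly differed: Per1 had 3096 and 3276, Tsc22d3 had 9030 and 8163, and Ddit4 had 23089 and 24845. Of 21 immediate early genes, 4 were at least 2-fold lower on day 2, namely Fosl1, Ier3, Egr2 and Junb, with log2 ratios from -2.42 to -1.14. Fos had 345 and 204, whereas Egr1 had 1135 and 1049 and Atf3 had 155 and 147. Among the cytosolic heat shock genes, Hspb1 and Hspa1a were at least 2-fold lower on day 2 and the other 13 were not.

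The neutrophil genes differed in both directions. Neutrophils fill their azurophil granules as promyelocytes and their specific granules as myelocytes, and make surface receptors and gelatinase granules late. Mmp8, the neutrophil collagenase, had signals of 3034 on day 0 and 140 on day 2, a log2 ratio of -4.44 with a spot error of 0.21. The chemokine receptor Cxcr2 had 1443 and 242, and the secreted resistin-like Retnlg had 13195 and 2214. The calprotectin genes S100a8 and S100a9 had 53944 and 147010 on day 0 and 11604 and 51357 on day 2. Cd177, Mmp9, Stfa1 and Stfa2 were at least 2-fold lower on day 2 as well, the Stfa genes being close paralogs that may share signal. With Chil3 and Lcn2, 11 of 23 measured genes of the list were at least 2-fold lower. The azurophil granule genes were not among them. Elane had 1126 and 1384, Mpo had 1997 and 2706, Prtn3 had 160 and 255, and Ctsg had 560 and 754. Of the specific granule genes, Mmp8 and Lcn2 were lower, while Ltf and Camp were slightly higher on day 2, with log2 ratios of 0.35 and 0.50. Ngp had 1083 and 1093. Padi4 and Fcnb were at least 2-fold higher, with log2 ratios of 1.25 and 1.24. Of other genes of mature cells, Ly6g had 517 and 352 and the growth factor receptor Csf3r 39796 and 38837, so neither set was uniform. The second probe of Mpo had a log2 ratio of -0.13. The grouping by granule was made after the signals were seen. Il1r2, Hdc, which makes histamine and had 3758 and 684, and Prok2, a chemokine-like factor with 582 and 22.6, had lower signals on day 2 beside them.

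Macrophage genes differed in both directions. Of 24 measured genes of monocytes and inflammatory macrophages, 4 were at least 2-fold higher on day 2 and 6 lower. Trem2, a lipid receptor of phagocytes, had signals of 184 and 1738, a log2 ratio of 3.24. Osteopontin (Spp1) had 114 and 648, Gpnmb had 65.4 and 165, and Ms4a7 had 1174 and 2817. Those lower on day 2 were Chil3, Chil4, F13a1, Vcan, Clec4e and Clec4d, with log2 ratios from -1.78 to -1.27. Arg1, made by repair-associated macrophages, had 1654 and 2602, and 13.4 on day 139, where it was not well above background. The inducible nitric oxide synthase Nos2 had 280 and 268. Some of the genes with the highest ratios of all are also known from tissue-resident macrophages. The folate receptor Folr2 had 26.6 and 667, a log2 ratio of 4.65. Cbr2 had 80.2 and 1668, a log2 ratio of 4.38, and its second probe gave 3.89. The complement receptor Vsig4 had 145 and 1776, a log2 ratio of 3.62. C3ar1, the receptor of a complement fragment, is not among the highest ratios, with 37.5 and 128, a log2 ratio of 1.77. These 4 were chosen for their ratios, and other genes of such cells did not share them: Cd163 had 89.6 and 67.2, Mrc1 5668 and 3495, Timd4 216 and 203 and Marco 22779 and 16599. Of 13 measured genes of marginal zone macrophages and scavenger receptors, 0 were at least 2-fold apart. Folr2, Cbr2, Vsig4 and C3ar1 were lower again on day 139, at 81.3, 239, 341 and 11.5, and that of C3ar1 was not well above background.

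The red pulp macrophages were described by 17 measured genes, of which 2 were at least 2-fold lower on day 2 and 0 higher. The list includes the globin gene Hba-a1, which red cells make and which had the same signal on days 0, 2 and 139. Quantile normalization gives probes of equal rank the same value, so this equality does not show equal amounts. The lower genes were Spic, the factor this cell type depends on, with 13171 and 4011, and Hmox1, the enzyme that degrades heme, with 35150 and 11014. The genes of the cell's surface and iron export differed less. Vcam1 had 27025 and 31152, the iron exporter Slc40a1 had 9820 and 9192, Adgre1 had 2266 and 3828, and Cd5l had 12226 and 18795. The second probe of Vcam1 gave a log2 ratio of -0.47.

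**Figure D3:**
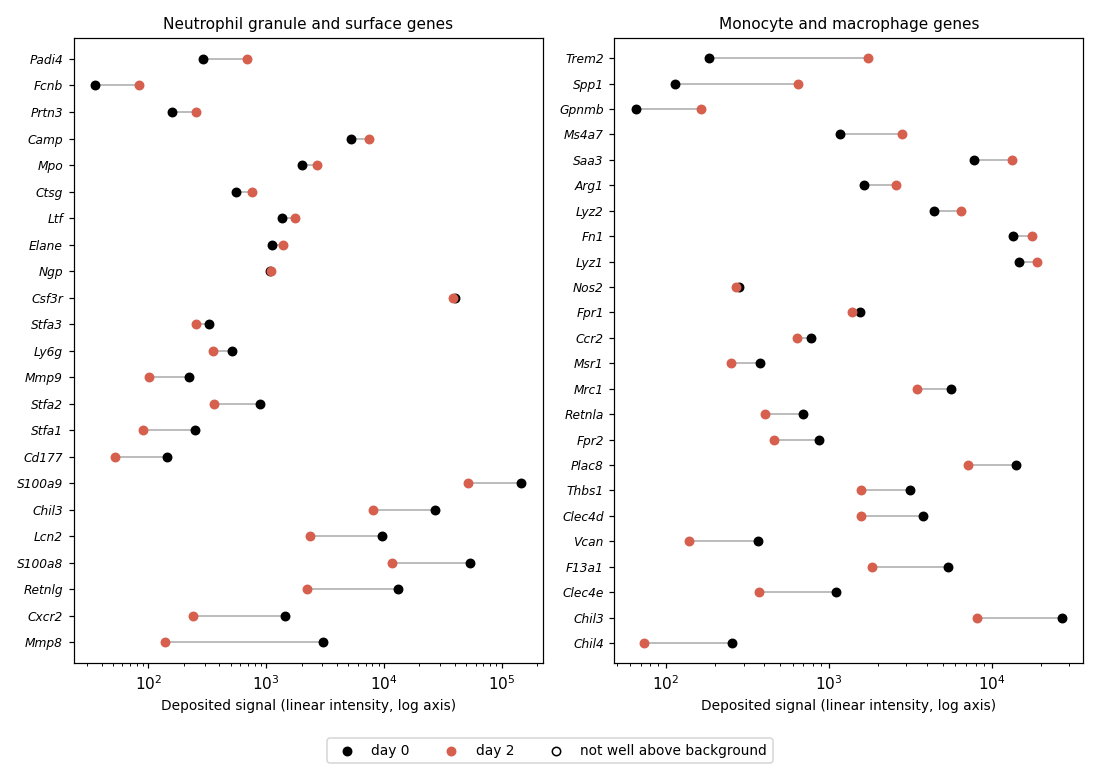
Deposited signal on day 0 (black) and day 2 (red) for each measured member of the neutrophil and the monocyte and macrophage lists, as linear intensity on log axes. The neutrophil genes Mmp8, Cxcr2 and Retnlg lie far to the left on day 2, while Elane, Mpo, Prtn3, Ctsg, Ltf and Camp lie slightly to the right. Trem2 and Spp1 lie far to the right.

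Genes of the fibrillar matrix had the higher signals on day 2. Col1a1 and Col1a2, the chains of type I collagen, had signals of 1179 and 6270 on day 0 and of 11182 and 29485 on day 2. Col3a1 (mm9 chromosome 1, 45405589 to 45405648) had 786 and 9030, a log2 ratio of 3.52 with a spot error of 0.20. The type VI collagens Col6a1 and Col6a2 had log2 ratios of 2.67 and 2.86, fibrillin (Fbn1) 1.99 and the cross-linking enzyme Loxl2 1.62. In all, 13 of 25 measured genes of collagens and matrix were at least 2-fold higher and 0 lower, with a median log2 ratio of 1.08. The basement membrane collagens did not follow: Col4a1 had 2543 and 2041 and Col4a2 had 2746 and 2434. Fn1 had 13468 and 17754, and Tnc, a matrix protein of wounds, had 25.0 and 23.7. On day 139 Col1a1 was back at 1361 and Col3a1 at 1334.

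The proteases that cut matrix went mostly the other way, with 7 of 19 measured genes at least 2-fold lower on day 2 and 1 higher. The exception was Mmp2, the gelatinase of mesenchymal cells, with 139 and 742, a log2 ratio of 2.41. Besides the neutrophil enzymes Mmp8 and Mmp9, the aggrecanase Adamts4 had 3084 and 677, and Mmp13, Mmp19 and Adam8 had log2 ratios from -1.38 to -1.13. The inhibitor Timp1 had 5972 and 3650.

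Smooth muscle contractile genes were higher on day 2 without exception in sign. The actins Acta2 and Actg2 had 3362 and 565 on day 0 and 24801 and 2684 on day 2, and calponin (Cnn1) had 526 and 2286. Of 12 measured genes 9 were at least 2-fold higher, and the median log2 ratio was 1.38. The smallest was that of desmin (Des), at 0.57. The CArG box is the site that serum response factor binds in such genes. Searched with no mismatch allowed, it was in the promoter windows of 1 of 10 genes, Myl9. These 10 are the genes with a window in this list of 13. Sites that depart from the consensus or lie outside the windows were not counted. The exact box was in 1.47% of all windows, a share that counts windows and not genes. Growth factor receptors of stromal cells were lower on day 2 but within 2-fold, with 1181 and 649 for Pdgfra and 2220 and 1494 for Pdgfrb. The spleen organizers Tlx1 and Nkx2-5 had log2 ratios of -0.16 and 0.96.

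Genes of the mesothelium, the cell layer that covers the spleen, were higher on day 2 for 11 of 17 measured members, and 0 were at least 2-fold lower. The keratins Krt8, Krt18, Krt19 and Krt7 had log2 ratios of 2.36, 2.36, 3.05 and 2.51, and mesothelin (Msln) had 96.4 and 390. Upk3b, Lrrn4 and Upk1b were well above background on day 2 alone, so they were at least 3.52-fold, 4.04-fold and 3.87-fold higher. With Gpm6a, 4 of the 11 were measured through the day 2 array alone. Many of these genes are dim, and the median log2 ratio of 1.78 became 0.58 with a normexp background correction. Wt1, a factor also made in splenic stroma, had 1492 and 1443. Several of these genes were higher still on day 139, when Msln stood at 2282, Upk3b at 459 and Muc16 at 362. Which part of the spleen entered each RNA is not given in the sources used here, and its part in these differences was not tested.

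**Figure D4:**
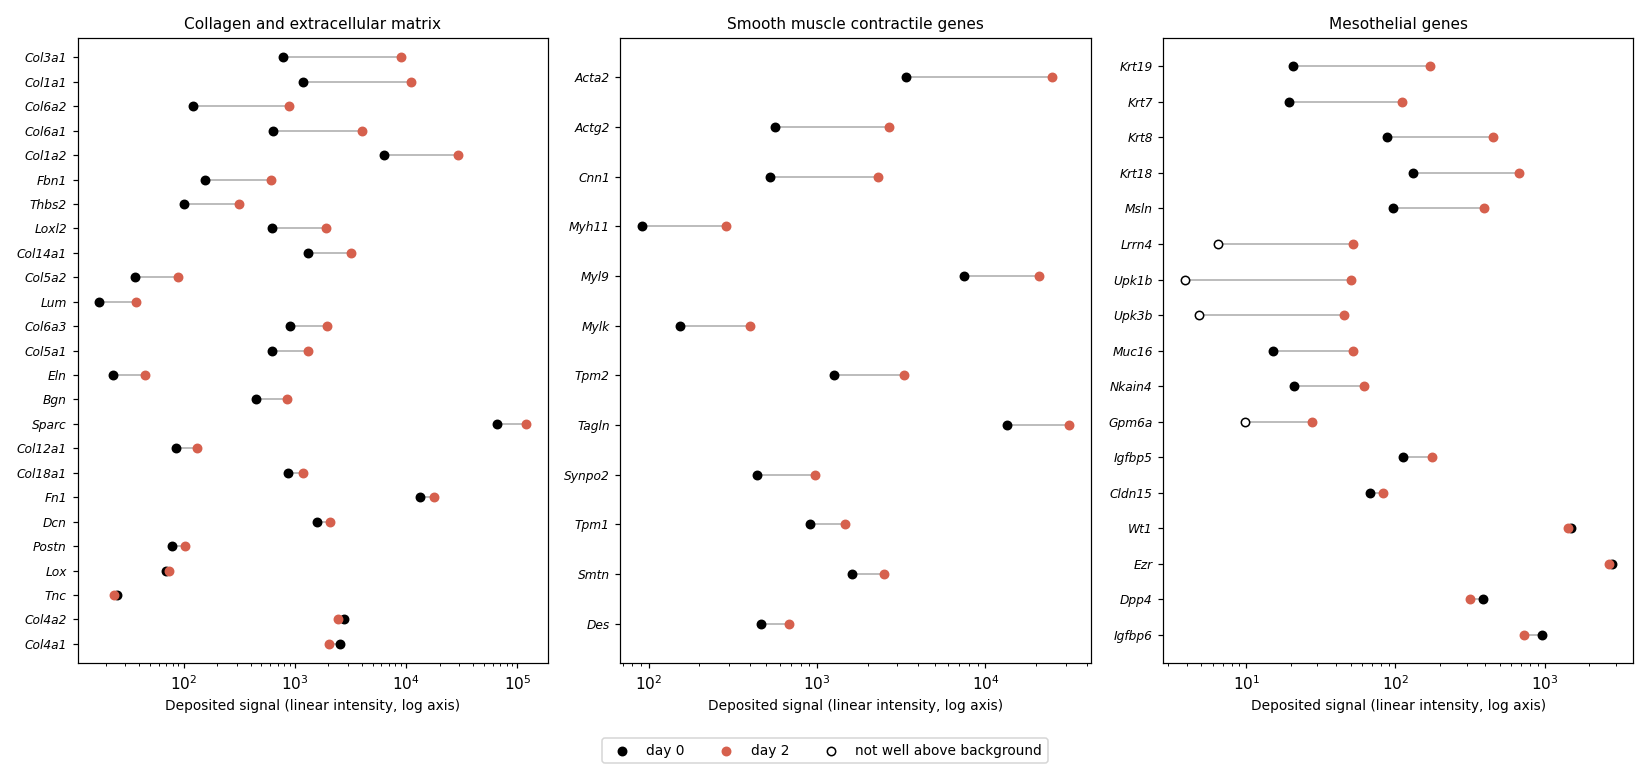
Deposited signal on day 0 (black) and day 2 (red) for each measured member of the matrix, smooth muscle and mesothelial lists, as linear intensity on log axes; open circles are signals not well above background. All 12 contractile genes lie to the right on day 2, while Col4a1, Col4a2, Wt1 and Ezr hardly differed.

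Islet transcripts were measured on both arrays, and most of them had the higher signal on day 2. The insulin genes were the brightest, and they did not reach 2-fold. Ins1 had signals of 27132 and 36989 and Ins2 had 30998 and 42566, log2 ratios of 0.45 and 0.46 from paralogs that may share signal. Of the other hormones, all but ghrelin were further apart. Amylin (Iapp), which beta cells release with insulin, had 3267 and 16733. Glucagon (Gcg) had 879 and 2581, somatostatin (Sst) 141 and 575, and peptide YY (Pyy) 126 and 583. Of 8 measured hormone genes, 5 were at least 2-fold higher and 0 lower. Ghrelin (Ghrl) had 32.6 and 32.5.

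The secretory granule genes had the same direction. Of 15 measured granins and prohormone processing enzymes, 10 were at least 2-fold higher on day 2, 0 were lower, and all 15 log2 ratios were above 0. Peg3 and Nnat were measured through the day 2 array alone, so their bounds could only lie above 0, and Nnat is among the 10. The median log2 ratio was 1.37, against 1.48 over genes well above background on both arrays and 1.00 with normexp. Chromogranin B (Chgb) had 249 and 2779, a log2 ratio of 3.48, and chromogranin A (Chga) had 884 and 4716. The convertases Pcsk1 and Pcsk2, which cut proinsulin and proglucagon, had 15.7 and 280 on day 0 and 134 and 1251 on day 2. Among islet factors and function genes, 22 were on the array and 14 measured, 4 of them through the day 2 array alone, and 8 were at least 2-fold higher. The median log2 ratio of 1.42 became 1.07 over genes well above background on both arrays, 0.50 with normexp and 0.12 without a detection filter. The sulfonylurea receptor Abcc8 had 147 and 810. The beta cell factor Nkx6-1 had 25.1 and 68.1, and the zinc transporter Slc30a8 was at least 2.79-fold higher. Transthyretin (Ttr), which islets and liver make, was at least 39.4-fold higher on day 2, with a signal of 510. Of 12 liver genes on the array 7 were measured, Ttr among them, and 1 was at least 2-fold higher and 0 lower. Apoa2 had 1086 and 1325, with a log2 ratio of 1.28 for its second probe, and Serpina1a had 234 and 196. The liver genes Alb and Apoa1 were not measured on either array. Pdx1 and Neurod1 were not measured either. Exocrine pancreas genes were measured for 8 of 21 members on the array, and 1 of them was at least 2-fold higher, Amy2a5 with 21.3 and 43.4. Which share of the graft was in each RNA is not known, and its part in these differences was not tested.

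The lymphocyte genes of the white pulp differed little. Of 18 measured B cell genes and 20 T cell genes, 0 were at least 2-fold apart. The B cell median log2 ratio was 0.00 and that of the T cell genes 0.31, with 18 of 20 T cell genes above 0, such as Cd3e with 2156 and 2956 and Lck with 5018 and 7196. The interleukin 7 receptor Il7r was an exception, with 625 and 377. Of 11 MHC class II genes, 1 was at least 2-fold lower, the regulator Ciita, with 194 and 63.9, while H2-Ab1 had 96907 and 102530. The dendritic cell list held 1 such gene, Ccl17, with 213 and 38.6. Proliferation genes lay mostly above 0 but under 2-fold. The mitosis genes had 22 of 26 log2 ratios above 0 and the replication genes 21 of 29, with medians of 0.26 and 0.22. Mki67 had 30690 and 27728, and E2f1 had 1144 and 2025. Of 30 interferon-stimulated genes, 1 was at least 2-fold lower, Oas2, with 2796 and 1145. Ribosomal protein and housekeeping genes had medians of 0.00 and none was 2-fold apart. The male genes Ddx3y and Eif2s3y were well above background on both arrays, with 960 and 1125 and with 1630 and 1542.

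**Figure D5:**
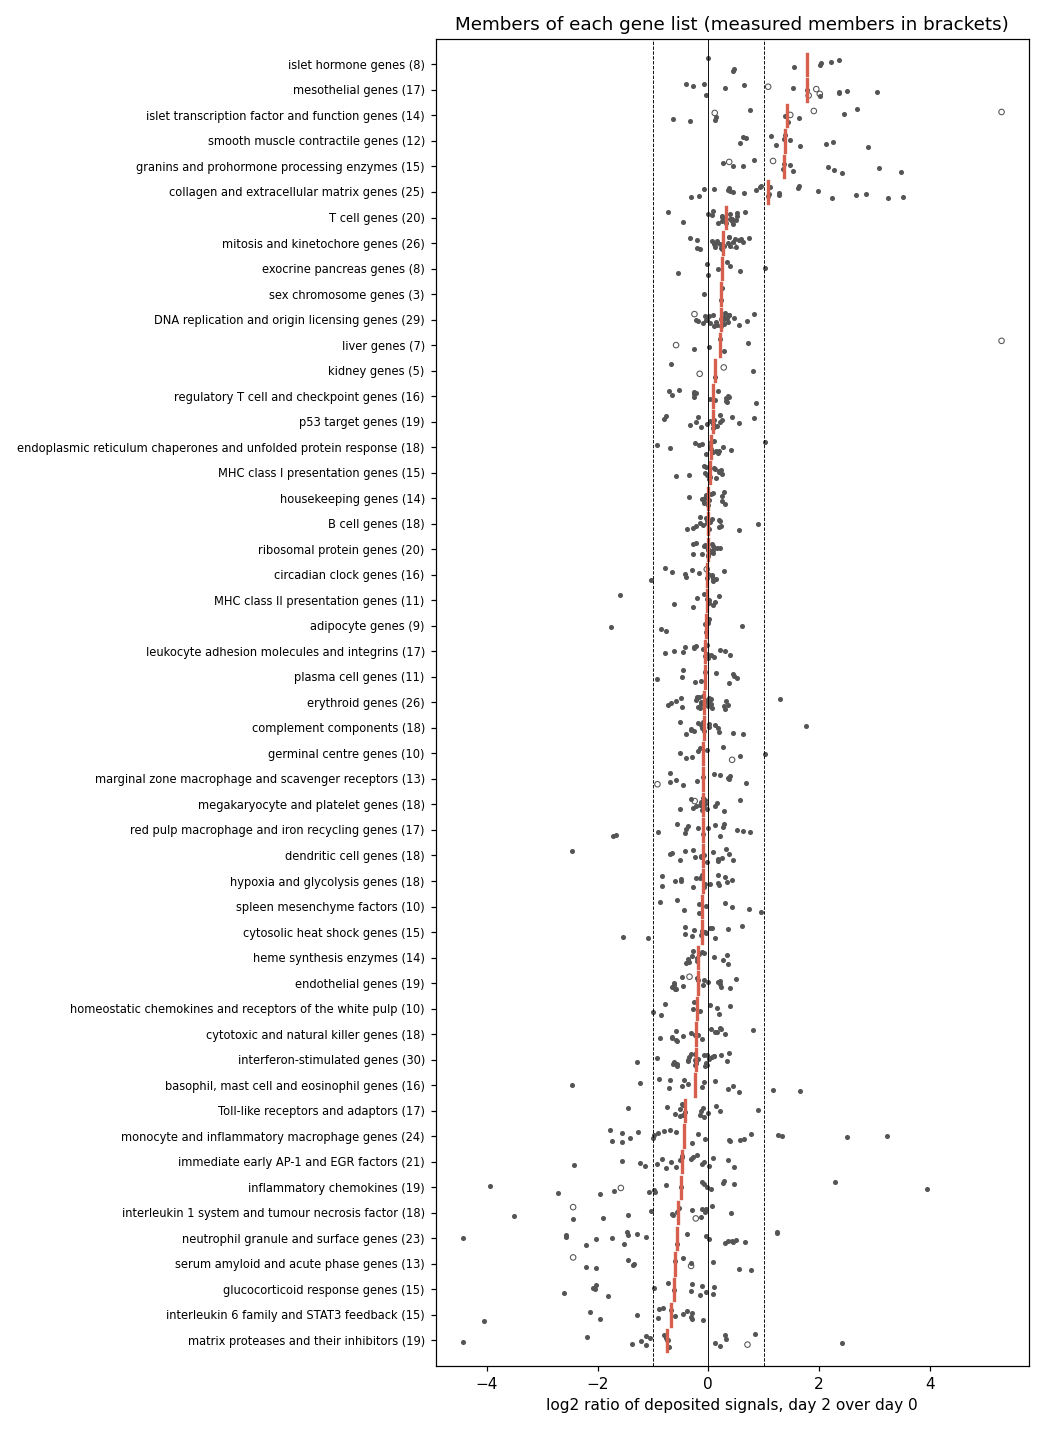
Log2 ratio of each measured member of the 51 gene lists (dots; open circles are bounds), with the median of each list in red and dashed lines at a 2-fold difference. Islet, mesothelial, contractile and matrix lists have medians above 1, protease, interleukin 6 and glucocorticoid lists have the lowest medians, and lymphocyte, ribosomal and housekeeping lists lie near 0.

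A small set of melanocyte genes was read on the day 0 array alone. Dct, an enzyme of melanin synthesis, had a signal of 1123 on day 0 and was not well above background on day 2, which bounds its log2 ratio at -6.32 or below. This was the lowest bound of all genes, and its second probe gave a log2 ratio of -5.05. Mlana had 149 and Pmel 151 on day 0, and they were at least 10.6-fold and 10.3-fold lower on day 2. Tyrp1 had 82.7 on day 0 and was at least 5.89-fold lower. Of 12 genes listed after the signals were seen, 9 were measured, 4 were at least 2-fold lower and 5 were not. Tyr, the first enzyme of the pathway, had 26.1 and 41.2, and the lineage factors Mitf and Sox10 had 379 and 95.2 on day 0 and 462 and 113 on day 2.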

How the data were processed

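Total RNA of graft-bearing spleens was labeled with Cy3 and hybridized to SurePrint G3 Mouse 8x60K arrays with probes of 60 bases. The authors deposited the scanner output and 1 table of processed intensity values. The file headers name Feature Extraction 10.7.1.1, which subtracted the background, whereas the labels name 9.5.1.1. For RNA purification and labeling, the labels give other kits than the paper does. The columns of the deposited intensity table hold the same sorted values, as quantile normalization over the 3 arrays gives, and correlate with the scanner signals at 0.9994 or above on the log2 scale. Equal distributions hide any difference in total mRNA.

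The deposited table gave the values, and the scanner flags gave detection. A probe with several spots counted as well above background if most of them did, as held for 54.4% of probes on day 0 and 53.8% on day 2. No gene spot was saturated. Among probes present as at least 5 spots, the median SD of log2 signals was about 0.20 for signals from 15 to 80 and 0.05 to 0.06 from 500. The number of arrays limits the precision. Names were resolved through RefSeq (GRCm38.p6, names and promoters only), by accession, symbol or unique synonym, and 24300 probes had no symbol. Probe positions are on mm9.

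A gene was called when the signals differed at least 2-fold. Named genes are the 12 highest and the 12 lowest ratios with a signal of at least 100, the 5 largest bounds each way, and from each of 51 lists the first member and up to 6 members with the largest ratios. A few genes that this rule names are not reported here. Other members named in the report were chosen after their values were seen. The comparison, members and lists were chosen with earlier results of these data known. Alternatives were another quantile normalization, the 75th percentile, normexp (limma 3.58.1 in R 4.3.3), spike-in scaling, other filters and floors, the median over probes and other limits. Calculations used Python 3.11.15, numpy 2.4.6 and pandas 2.3.3.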

Additional observations from a re-analysis of the deposited data

How the results depend on the processing

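The counts of genes at least 2-fold higher (514) and lower (433) on day 2 stayed within 1.5 times of these values under 8 of 11 alternatives each. With a normexp background correction and an offset of 50, they were 161 and 176. The offset adds a constant to every signal, which shrinks the ratios of dim signals most. At the ratio limits of the methods, 1.5 and 0.66, without the Z-score they were 1384 and 1156, and at a 3-fold limit 153 and 160, as follows from the limits. With spike-in scaling the lower genes outnumbered the higher, at 491 against 431, and with normexp too. No called median of a gene list and no called ratio of a named gene changed sign under the alternatives run. The median of the interleukin 1 list was -0.55 as reported and -0.32 with normexp, and that of the acute phase list -0.60 as reported, -0.35 with normexp, -0.21 without a detection filter and -1.35 with no floor. That of the islet factor list, 1.42 as reported, was 0.50 with normexp and 0.12 without a detection filter. Of the values under alternatives, 14 of the list medians and 140 of the gene ratios differed from those reported by more than the spot error. Dim probes are the least precise, and a bound says nothing of the size beyond it. With 1 array at each time, no replicate could be left out and no test was possible. No paired analysis was possible because each group has 1 array.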

Other observations

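Of 16 measured genes of basophils, mast cells and eosinophils, 2 were at least 2-fold higher on day 2 and 2 lower, with a median log2 ratio of -0.24. The mast cell protease Cpa3 had signals of 64.7 and 204, and Fcer1a, a chain of the IgE receptor, had 18.3 and 41.5. Kit, the receptor of the mast cell growth factor, had 758 and 703, and Hdc, Gata2 and Tpsb2 had log2 ratios of -2.46, -0.71 and -0.48. The second probe of Tpsb2 went the other way, with a log2 ratio of 1.08. Prg2, a granule protein of eosinophils, had 706 and 301, and the eosinophil receptor Ccr3 had 2734 and 1475.

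Several of the largest differences belong to genes outside the groups described, each read by 1 probe unless stated. On day 2 the signal of Ccdc151 was 1479, at least 103-fold higher than on day 0. Gm11559 had 413 and 13333, A230072E10Rik had 31.7 and 923, and Kdelr3 had 27.1 and 369. Sult2a8 and Adig had signals of 208 and 158 on day 2 and were not well above background on day 0, but the second probe of Adig gave a log2 ratio of 0.34. On day 0, Ptgds had a signal of 495, Olfr1500 of 326 and Arg2 of 152, and they were at least 35.2-fold, 23.3-fold and 10.8-fold lower on day 2. The lowest ratios measured on both arrays included 4933405E24Rik with 588 and 21.8, Scrg1 with 330 and 27.9, Phox2a with 268 and 31.8, Mirt2 with 821 and 106, and Gm4971 with 9378 and 1098. Nhlh1 had 955 and 40.8 and Ermn had 20661 and 2782, but their second probes gave log2 ratios of -0.42 and -0.35. Of 171 genes called with more than 1 probe, the probes of 154 lay on the same side of 0.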
